A study of Drosophila melanogaster with 6 samples.

Results

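The genes described here encode subunits of the mitochondrial respiratory chain and were followed in heads of pum kd and control flies. They were chosen by FlyBase symbol alone, as the genes whose symbol begins with ND-, COX and a digit, UQCR or ATPsyn, or with mt: followed by ND, Co, Cyt-b or ATPase. The rule found 93 of the 17807 genes counted, of which 80 lie in the nuclear genome and 13 in the mitochondrial genome. Among the 80 nuclear-encoded members, 21 carry an L after the name of another subunit, as in COX4L, and are called copies here. The other 59 are called the standard nuclear subunits and comprise 34 genes of complex I, 6 of complex III, 8 of complex IV and 11 of complex V. The mitochondrion-encoded members comprise 7 genes of complex I, 1 of complex III, 3 of complex IV and 2 of complex V.

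Poly-A RNA from heads of adult males was sequenced in 6 libraries, 3 of pum kd flies and 3 of control flies, each made from 10 pooled heads. The pum kd flies carried UAS-pumRNAi (TRiP.HMS01564, inserted at attP2), an RNAi transgene against pum, which encodes a translational repressor that binds RNA. The control flies carried UAS-mCherryRNAi (VALIUM20-mCherry.RNAi, inserted at the same attP2 site) against a protein that flies lack. Both genotypes shared the driver esg-Gal4 with UAS-2xYFP on one chromosome, the repressor Su(H)GBE-Gal80, and the temperature-sensitive repressor tub-Gal80ts. The labels also give both the first-chromosome markers w1118/y1, sc*, v1 and sev21. Flies were reared at 18 °C, where the transgenes are silent, and shifted to 29 °C to induce them. The driver works in stem cells of the intestine (ISCs) and in the corpus allatum (CA), an endocrine gland, so the knockdown was directed at few or none of the cells that make up a head. A head library also cannot tell fewer cells of a type from less RNA per cell. The labels call the libraries biological replicates from separate pools of heads. The targeted gene, pum, was at 176, 192 and 228 CPM in pum kd replicates 1, 2 and 3, against 346, 168 and 270 CPM in control replicates 1, 2 and 3, and the groups overlapped.

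The respiratory chain moves electrons from NADH and succinate to oxygen and uses the energy to pump protons across the inner mitochondrial membrane. Complex I oxidises NADH, complex III passes electrons from ubiquinone to cytochrome c, complex IV reduces oxygen, and complex V, the ATP synthase, makes ATP from the returning protons. Complexes I, III, IV and V are mosaics of proteins encoded in both genomes, which have to be made in matching amounts. The mitochondrial genes are transcribed as long precursors that are cut into mRNAs with short poly-A tails. Photoreceptors and neurons, which fill the fly head, use large amounts of ATP. The photoreceptor marker genes summed to 92820 to 109900 CPM over the 6 libraries, with all 11 markers detected, and the 5 neuron markers were also all detected.

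No respiratory chain gene was called different between pum kd and control heads. The test was edgeR's quasi-likelihood test on the deposited counts of all 10696 genes that passed a filter on low counts, with Benjamini-Hochberg adjustment. A call needed an adjusted p under 0.05 together with a log2 fold change of 1 or more in either direction. Of the 93 members, 77 passed the filter, 66 nuclear-encoded and 11 mitochondrion-encoded, and 0 of them were called. Of all genes tested, 0.103% were called, and the share was also 0.103% with the fold change left out of the rule. The lowest adjusted p of any member was 0.825 by edgeR. At an unadjusted p under 0.05, edgeR gave 1 member of 77, against 4.95% of all genes tested. DESeq2 gave 2 members, 1 of them the copy COX7CL at no more than 0.827 CPM in any library. With limma on the authors' normalized values the count was 3. The share of all genes was not computed for DESeq2 and limma, so their counts cannot be judged against a background. The precision was sufficient to bound the standard nuclear subunits. Each of the 57 that were tested had a 95% interval for its log2 fold change that lay between -1 and 1, that is, within a 2-fold change in either direction. The same held for 7220 of the 10696 genes tested.

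In this fit the mitochondrion-encoded members lay above 0 as a set, although no single one passed the test. Of the 11 tested, 10 had a positive log2 fold change in pum kd heads over control heads, and the median was 0.29. Of the 57 standard nuclear subunits tested, 33 had a positive value and 24 a negative one, with a median of 0.01. Over all 66 nuclear-encoded members tested the median was also 0.01, and over all genes tested it was -0.03. These medians describe genes that share libraries, and genes are not replicates. Both moved with the libraries included. Without 1 library at a time the nuclear median ranged from -0.11 to 0.21 and the mitochondrial median from 0.14 to 0.49. With a correction for gene length, described below, the mitochondrial median was 0.105. With 1 library also left out, it ran from -0.14 to 0.31 over the genes above 1 CPM. These genes did not have the library order of short genes, and the correction widened the spread of their medians between control libraries, as given below.

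**Figure D1:**
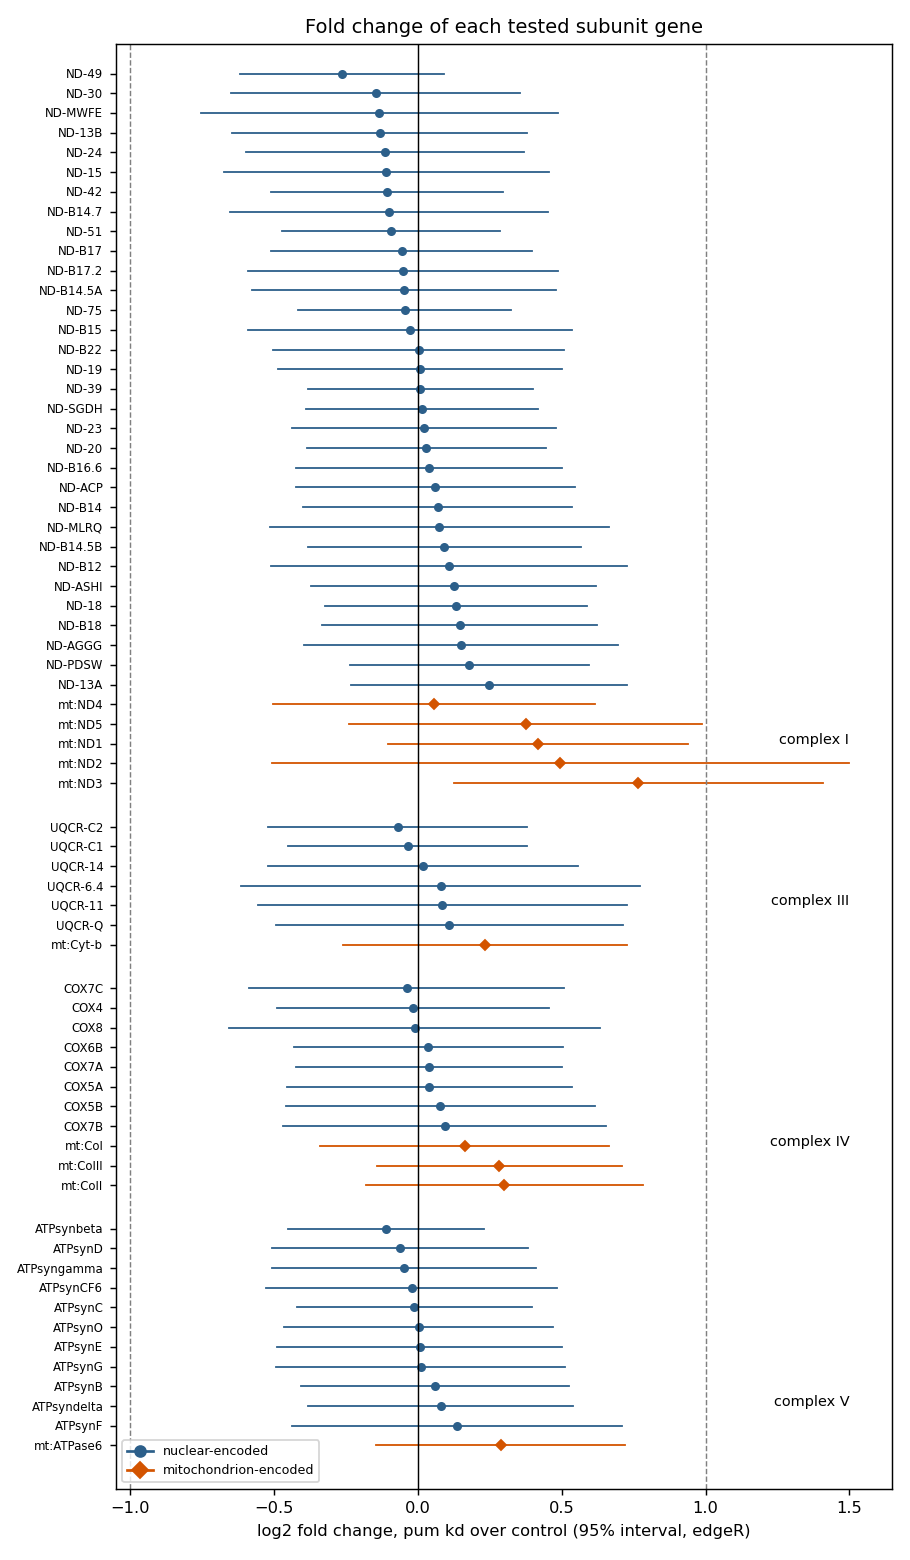
Fold change of each standard nuclear subunit (blue circles) and each mitochondrion-encoded subunit above 1 CPM (orange diamonds), as log2 of pum kd over control on the horizontal axis with its 95% interval from edgeR; the dashed lines mark a 2-fold change. The 57 nuclear-encoded genes spread from -0.26 to 0.25 around a median of 0.01, and the 10 mitochondrion-encoded genes lie at 0.06 to 0.77, with only the interval of mt:ND3 clear of 0.

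mt:ND3, a membrane-arm subunit of complex I, was the only member with an unadjusted p under 0.05 in this fit. It lies at positions 5608 to 5961 on the plus strand of the mitochondrial genome of dm6. Its normalized counts were 400, 376 and 168 CPM in pum kd replicates 1, 2 and 3, against 194, 165 and 196 CPM in control replicates 1, 2 and 3. A pair of the pum kd libraries thus lay above every control library, and the remaining one lay within the control range. The means were 315 ± 128 CPM in pum kd heads and 185 ± 17.3 CPM in control heads (SD, n = 3 each). The log2 fold change was 0.77 (standard error 0.29, 95% interval 0.13 to 1.41), with an edgeR adjusted p of 0.825. The libraries fall into a pair of batches, given by the division that returns the authors' batch-corrected values, and the log2 difference of mt:ND3 was 1.16 within the first (1 pum kd and 2 control libraries) and 0.36 within the second (2 pum kd and 1 control). mt:ND3 has the shortest coding sequence of the tested mitochondrial genes above 1 CPM, at 354 bases. With a smooth curve on gene length removed from each library, its log2 fold change was 0.46 (adjusted p = 0.786 by edgeR). With this length correction the 1 member with an unadjusted p under 0.05 was not mt:ND3 but ND-49 (log2 fold change -0.34, adjusted p = 0.353 by edgeR). The share of all genes at that threshold was not computed for the length-corrected fit, so this count cannot be judged against a background. The adjusted p of mt:ND3 was 0.0115 with DESeq2 on counts first corrected by ComBat-seq for the division above. The authors describe this sequence of steps, and this alternative was chosen here after the values were seen. Of all 11324 genes in that fit, 382, or 3.37%, had an adjusted p under 0.05. Over its alternatives the adjusted p of mt:ND3 ranged from 0.0115 to 1.0.

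The complex IV genes were the most abundant of the mitochondrion-encoded members. Levels are compared between genes as TPM, counts per base of annotated exon scaled to a common total, and as the mean over 6 libraries. mt:CoI, the catalytic subunit that carries the haem and copper centre, was at 16350 ± 3547 TPM (SD, n = 6). mt:CoIII was at 13040 ± 1657 TPM and mt:CoII, which takes the electrons from cytochrome c, at 8366 ± 1249 TPM (SD, n = 6 each). mt:CoI was above mt:CoIII, and mt:CoIII above mt:CoII, in all 6 libraries. mt:Cyt-b, the haem-bearing core of complex III, followed at 5243 ± 993 TPM, and mt:ATPase6, the proton channel of the ATP synthase, at 3770 ± 486 TPM (SD, n = 6 each). These stood above every nuclear-encoded member.

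The complex I genes of the mitochondrial genome were lower and far more unequal. mt:ND1 was at 2046 ± 429 TPM, mt:ND3 at 1339 ± 461, mt:ND4 at 877 ± 216 and mt:ND5 at 683 ± 191 TPM (SD, n = 6 each). mt:ND3 was above mt:ND4 in 5 of the 6 libraries, and mt:ND4 was above mt:ND5 in all 6. mt:ND2 was at 29.1 ± 15.6 TPM, mt:ND4L at 2.43 ± 2.91 TPM and mt:ND6 at 0.612 ± 0.634 TPM. mt:ATPase8, at 162 bases, had 0 counts in all libraries. This allows at most 0.0762 to 0.0902 CPM of assigned counts per library at a floor of 3 counts, for counting error only. It sets no limit on the mRNA, because 998982 to 1263771 counts per library were ambiguous between genes and were given to none. mt:ATPase8 shares 4.32% of its length with mt:ATPase6, and the other mitochondrial members share at most 1.19% of theirs with a neighbour. The proteins of these genes enter complex I in equal numbers, whereas the counted levels of the 7 genes ran over more than 3 powers of 10. The capture of each mRNA by its poly-A tail, and the assignment of reads to 1 of several adjoining genes, enter these levels, and their part was not tested.

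**Figure D2:**
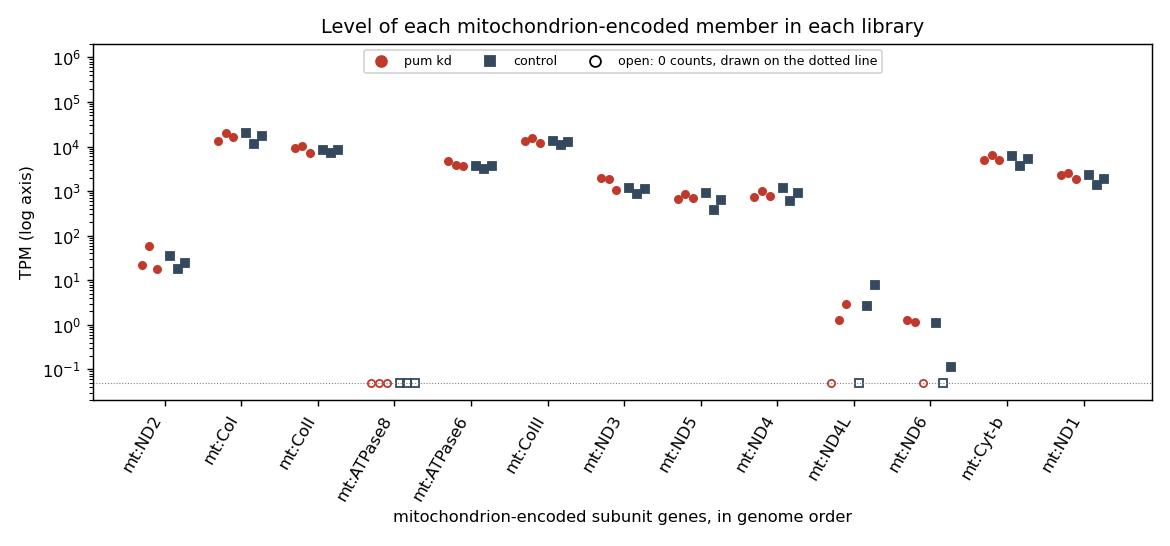
TPM of the 13 mitochondrion-encoded members in each library on a log axis, in the order of their start positions; red circles are pum kd and dark squares control libraries, and open symbols on the dotted line are libraries with 0 counts. mt:CoI is highest at a mean of 16350 TPM, mt:ND2 stands near 29.1 TPM, and mt:ATPase8 is at 0 throughout.

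In pum kd heads the mitochondrial mRNAs above 1 CPM all had positive log2 fold changes. All their 95% intervals except that of mt:ND3, described above, included 0. mt:CoI was at 11790, 17900 and 11240 CPM in pum kd replicates 1, 2 and 3, against 14450, 9155 and 12960 CPM in control replicates 1, 2 and 3. The groups overlapped widely, at a log2 fold change of 0.16 (standard error 0.23). mt:CoIII had 6029, 7149 and 4396 CPM in pum kd heads and 4937, 4480 and 5024 CPM in control heads, a log2 fold change of 0.28 (standard error 0.19). mt:CoII had a log2 fold change of 0.30, mt:Cyt-b of 0.23 and mt:ATPase6 of 0.29. With 1 library left out at a time these ran from 0.17 to 0.52 for mt:CoII, from 0.06 to 0.40 for mt:Cyt-b and from 0.15 to 0.45 for mt:ATPase6, and with the length correction they were 0.11, 0.10 and 0.08. mt:ND1 was at 1227, 1409 and 789 CPM in pum kd heads and 994, 691 and 879 CPM in control heads, with a log2 fold change of 0.42 (standard error 0.24). A pair of pum kd libraries lay above the control range for mt:ND1 and the remaining one lay within it. Of the remaining complex I genes, mt:ND5 had a value of 0.37, mt:ND2 of 0.50 and mt:ND4 of 0.06. mt:ND4L, at no more than 1.12 CPM in any library, was the only one below 0 (-1.31, standard error 1.88).

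Among nuclear-encoded subunits the most abundant per base were parts of the ATP synthase. ATPsynC, whose product forms the rotating ring in the membrane, was at 1348 ± 86.5 TPM, and ATPsynF, a membrane-bound stator subunit, at 1114 ± 222 TPM (SD, n = 6 each). ATPsynC had 1423, 1400 and 1064 CPM in pum kd replicates 1, 2 and 3, against 1173, 1490 and 1256 CPM in control replicates 1, 2 and 3, with a log2 fold change of -0.01 (standard error 0.18). ATPsynF had 476, 346 and 296 CPM in pum kd heads and 237, 451 and 329 CPM in control heads, a log2 fold change of 0.14 (standard error 0.26). Its lowest and highest control libraries thus differed by more than the groups did. The 11 complex V genes had a median of 0.00, with 6 above 0 and 5 below.

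The 8 standard complex IV genes had a median log2 fold change of 0.04, with 5 above 0. COX7B, a small accessory subunit, was at 922 ± 175 TPM, and COX5A, a subunit on the matrix side, at 900 ± 112 TPM (SD, n = 6 each). COX5A was at 436, 405 and 290 CPM in pum kd heads and 283, 443 and 374 CPM in control heads. Its log2 fold change was 0.04, with a 95% interval of -0.46 to 0.53. COX7B had a value of 0.09, with an interval of -0.47 to 0.66. Both genes overlapped between the groups.

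The 6 standard complex III genes had a median of 0.05, with 4 above 0. UQCR-C1 and UQCR-C2 encode the large core proteins that face the matrix. They were at 895 ± 68.0 and 835 ± 110 TPM (SD, n = 6 each) and had log2 fold changes of -0.04 (standard error 0.19) and -0.07 (standard error 0.20). UQCR-C2 was at 865, 658 and 603 CPM in pum kd heads, against 609, 863 and 761 CPM in control heads. UQCR-14 shares 100% of its exons with CG32576 on the opposite strand and UQCR-6.4 shares 40.5% with POSH, so their counts are exact only if strand was used in the counting, which the sources used here do not give.

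Of the 34 standard complex I genes, 32 were tested, with 18 above 0, 14 below and a median of 0.01. ND-MLRQ and ND-51 had the highest means and did not differ beyond their spread, with ND-51 the higher of the pair in 4 of 6 libraries. ND-MLRQ was at 857 ± 178 TPM, and the mammalian counterpart of this protein has been assigned to complex IV instead. ND-51, the flavin-bearing subunit that takes electrons from NADH, was at 844 ± 68.3 TPM (SD, n = 6 each). ND-51 had 741, 693 and 571 CPM in pum kd heads, against 669, 741 and 731 CPM in control heads, with a log2 fold change of -0.09 (standard error 0.17). ND-MLRQ had 334, 225 and 180 CPM in pum kd heads and 176, 303 and 222 CPM in control heads, with a log2 fold change of 0.07 (standard error 0.27). The accessory subunits ND-13A and ND-PDSW had the lowest unadjusted p among standard nuclear subunits with a positive value. ND-13A was at 101, 77.1 and 75.3 CPM in pum kd heads and 50.8, 85.9 and 76.6 CPM in control heads, with a log2 fold change of 0.25 (standard error 0.22). The value for ND-PDSW was 0.18 (standard error 0.19), and both genes overlapped between the groups. Without control replicate 1 the values were 0.06 for ND-13A and 0.06 for ND-PDSW, and with the length correction that of ND-PDSW was 0.02.

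Only a pair of members, ND-49 and ATPsynbeta, had groups that did not overlap, and both were lower in every pum kd library than in any control library. Of all genes tested, 4.95% were lower without overlap and 5.36% were higher without overlap, so 2 lower and 0 higher of 77 is no more than the background. ND-49, a core subunit of complex I near the ubiquinone site, lies on chromosome 4 from 568296 to 571554 on the minus strand. It was at 327, 309 and 292 CPM in pum kd replicates 1, 2 and 3, against 355, 389 and 371 CPM in control replicates 1, 2 and 3. Its log2 fold change was -0.26 (standard error 0.16, 95% interval -0.62 to 0.09, adjusted p = 0.993 by edgeR). ATPsynbeta, the catalytic subunit of the ATP synthase, lies on chromosome 4 from 1031484 to 1034917 on the plus strand. It was at 1039, 1068 and 1000 CPM in pum kd heads and 1080, 1120 and 1153 CPM in control heads, a log2 difference of -0.11 (SE 0.15; edgeR adjusted p = 0.993). The values of ND-49 stayed between -0.34 and -0.20 under all 19 alternatives and those of ATPsynbeta between -0.13 and -0.06. They are the only tested members on chromosome 4.

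The nuclear-encoded subunits varied together from library to library, and by more than the genotypes differed. Each gene's log2 CPM was set against its own mean over the 6 libraries, and the median was taken over the 57 standard nuclear subunits in each library. This median was 0.29, 0.01 and -0.29 in pum kd replicates 1, 2 and 3, against -0.29, 0.28 and -0.01 in control replicates 1, 2 and 3. In 55 of the 57 genes, pum kd replicate 1 was the highest of the pum kd libraries and control replicate 2 the highest of the control libraries. The same held for 22.3% of all genes tested. In 53 of the 57, pum kd replicate 3 and control replicate 1 were also the lowest of their groups, against 9.58% of all genes tested. All 4 complexes took part. The median in pum kd replicate 1 was 0.31 for complex I, 0.47 for complex III, 0.32 for complex IV and 0.26 for complex V. The replicate numbers mark no shared flies or days in the labels, and these are comparisons between libraries of the same genotype. The order counted is that of the subunits' own medians, and the genes compared were not matched for level.

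**Figure D3:**
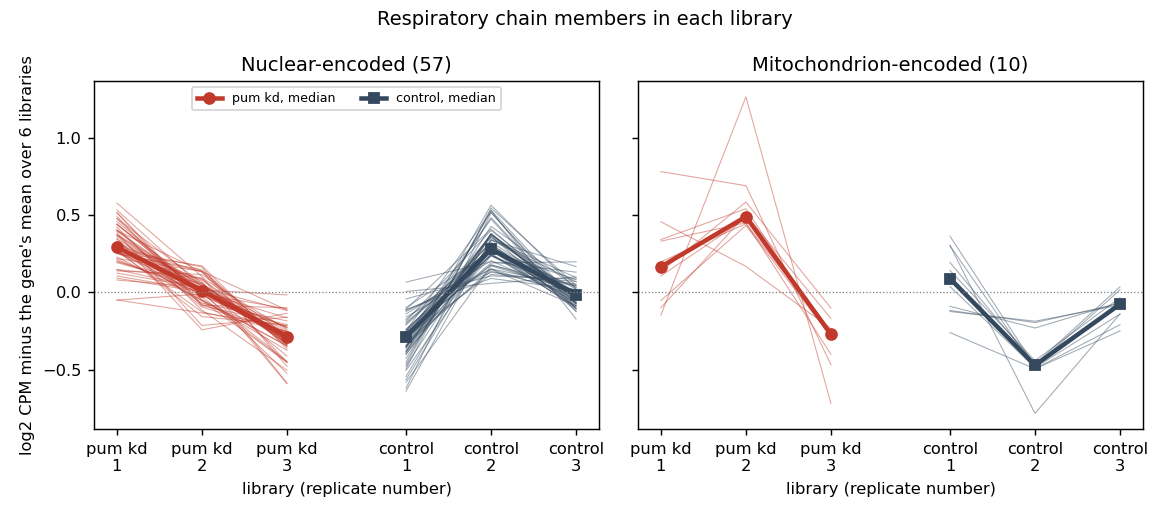
Log2 CPM of each member minus its own mean over 6 libraries, for 57 standard nuclear subunits (left) and 10 mitochondrion-encoded subunits above 1 CPM (right); pum kd libraries in red, control libraries in dark blue. Thin lines join the libraries for 1 gene and thick lines the medians. The nuclear median is highest in pum kd replicate 1 (0.29) and control replicate 2 (0.28), the mitochondrial one in pum kd replicate 2 (0.49), with control replicate 2 lowest (-0.47).

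The mitochondrion-encoded members followed a different order. Over the 10 above 1 CPM, the median deviation was 0.17, 0.49 and -0.27 in pum kd replicates 1, 2 and 3, against 0.09, -0.47 and -0.08 in control replicates 1, 2 and 3. Control replicate 2, the highest control library for nuclear-encoded subunits, was the lowest for all 10 mitochondrial genes, against 38.6% of all genes tested. Pum kd replicate 2 was the highest of its group in 8 of the 10, against 27.7% of all genes tested. The exceptions were mt:ND3 and mt:ATPase6, in which pum kd replicate 1 was highest. Here too the order is that of the members' own medians, without matching for level.

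Short genes had the same order of library medians as the nuclear-encoded subunits, and single short genes followed it less regularly. This order is that of the subunits' own medians. The genes compared were not matched for level, with a median of 400 TPM over the standard nuclear subunits and 21.9 TPM over all genes tested. The standard nuclear subunits had a median summed exon length of 842 bases, against 2004 bases over all genes tested. Over the 1957 tested genes under 1000 bases, the median deviation was 0.29, -0.01 and -0.10 in pum kd replicates 1, 2 and 3, against -0.30, 0.24 and -0.06 in control replicates 1, 2 and 3. In 44.8% of these short genes, pum kd replicate 1 and control replicate 2 were the highest of their groups, against 1.19% of the 2108 genes over 4000 bases. The full order of the libraries, with pum kd replicate 3 and control replicate 1 also lowest, was present in 93.0% of the nuclear subunits, 21.9% of the genes under 1000 bases and, for genes of 1000 bases and over, in 94.7% of the 19 subunits and 13.6% of the genes of 1000 to 2000 bases. The 38 nuclear subunits under 1000 bases had a median of 0.34 in pum kd replicate 1 and 0.34 in control replicate 2, and the 19 of 1000 bases and over had 0.21 in each. With the length curve of each library removed, the nuclear median was 0.08, 0.02 and -0.27 in pum kd replicates and -0.02, 0.18 and 0.03 in control replicates. The median of the 10 mitochondrial genes was then -0.03, 0.49 and -0.24 in pum kd replicates and 0.35, -0.585 and -0.025 in control replicates. Its spread between control libraries was thus wider than without the removal. The neuron markers moved the opposite way and summed to 3135, 3708 and 4226 CPM in pum kd replicates 1, 2 and 3, against 5255, 3080 and 4545 CPM in control replicates 1, 2 and 3. Their median log2 fold change was -0.28, and -0.03 with the length correction. The 4 glia markers summed to 415, 454 and 405 CPM in pum kd heads and 374, 343 and 371 CPM in control heads, without overlap. They were uneven, with log2 fold changes of 0.95 for alrm, 0.18 for nrv2, 0.06 for repo and 0.03 for moody. The 14 muscle markers, 13 of them with a negative log2 fold change, summed to 6252, 5762 and 6592 CPM in pum kd heads and 7574, 5970 and 8306 CPM in control heads, with overlap. The part of these cell types in the subunit levels was not tested.

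**Figure D4:**
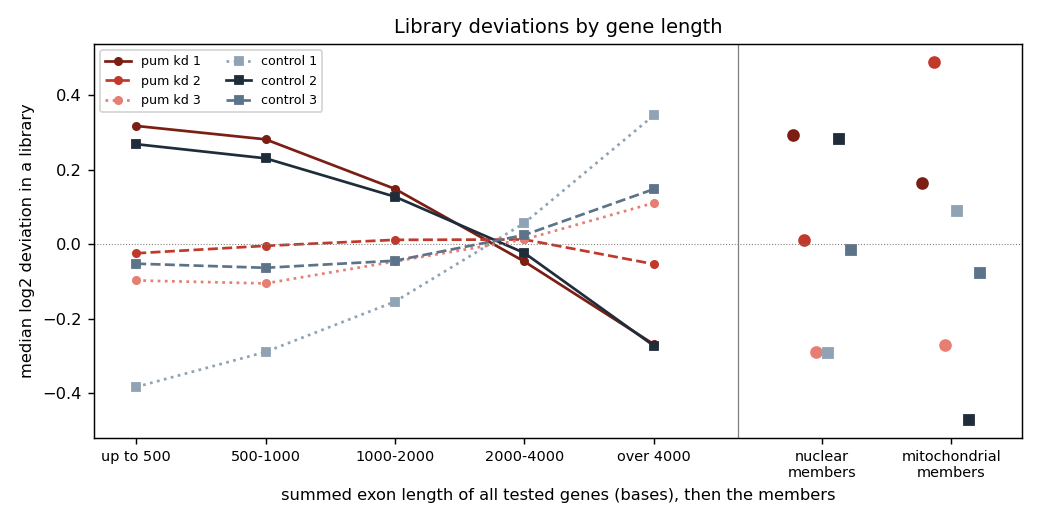
Median log2 deviation of tested genes from their own mean, in each library (red circles pum kd, blue squares control), for 5 classes of summed exon length and, at the right, for the 57 nuclear and 10 mitochondrial members. Short genes are high in pum kd replicate 1 and control replicate 2 and long genes low there (-0.27 in both over 4000 bases); the nuclear members have the library order of short genes, with pum kd replicate 3 further down (-0.29), while the mitochondrial members put control replicate 2 lowest.

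The length correction changed the sign of the nuclear median. With the curve removed in the edgeR fit, 51 of the 57 standard nuclear subunits had a log2 fold change below 0 and 6 above 0, with a median of -0.13, while the median of all genes tested was -0.03. The mitochondrial members then had a median of 0.10, and none of either group had an adjusted p under 0.05 by edgeR. With each library also left out in turn, the median of the standard nuclear subunits stayed between -0.19 and -0.03 and the mitochondrial median, over the genes above 1 CPM, ran from -0.14 to 0.31. It was -0.14 without pum kd replicate 2 and -0.02 without control replicate 2. Within the batches, the median log2 difference of the standard nuclear subunits was 0.29 in the first and -0.12 in the second, and that of the 10 mitochondrial genes was 0.37 and 0.15.

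The balance between the genomes was measured as the ratio of summed counts, in which the scaling of a library cancels. The nuclear-encoded members took 1.75%, 1.42% and 1.27% of all gene counts in pum kd replicates 1, 2 and 3, against 1.22%, 1.84% and 1.47% in control replicates 1, 2 and 3. The mitochondrion-encoded members took 2.94%, 3.63% and 2.45% in pum kd heads, against 2.83%, 2.22% and 2.695% in control heads (the gene counts summed to 33258537 to 39377789 per library). The ratio of mitochondrion-encoded to nuclear-encoded counts was 1.69, 2.55 and 1.93 in pum kd replicates 1, 2 and 3, against 2.32, 1.21 and 1.83 in control replicates 1, 2 and 3. It was 2.06 ± 0.448 in pum kd heads and 1.79 ± 0.560 in control heads (SD, n = 3 each), a difference smaller than the spread within either group. On the log2 scale the difference was 0.23. It was 0.01 within the first batch and 0.28 within the second, and with 1 library left out at a time it ran from -0.03 without control replicate 2, the library with the lowest ratio, to 0.45 without control replicate 1. It was 0.06 without pum kd replicate 2 and 0.36 without pum kd replicate 1. Most of the mitochondrial sum came from the complex IV genes, which took 1.70% to 2.76% of all gene counts in a library. With the mean log2 TPM of the members in place of sums, the log2 difference was 0.28.

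**Figure D5:**
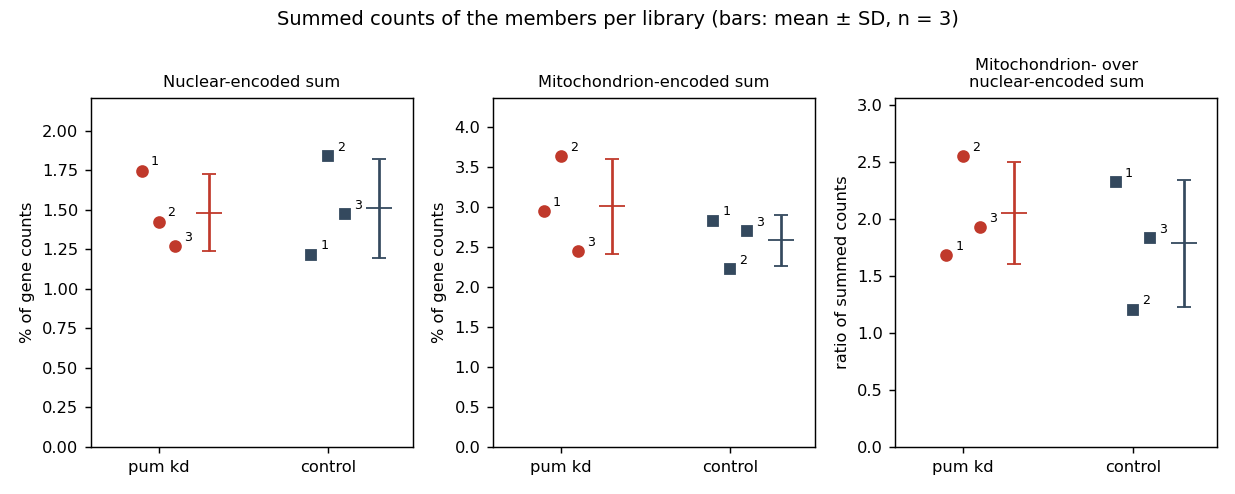
Summed counts of the nuclear-encoded members (left) and the mitochondrion-encoded members (middle) as a percentage of all gene counts, and their ratio (right), for pum kd (red circles) and control (dark squares) libraries numbered by replicate, with mean ± SD (n = 3). The ratio averages 2.06 in pum kd and 1.79 in control heads, and control replicates 1 (2.32) and 2 (1.21) span nearly the whole range.

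The ratio differed between complexes. It is given first in counts, which are not scaled to gene length. Each ratio divides a sum over fewer mitochondrial than nuclear genes, 7 against 34 in complex I and 2 against 11 in complex V. Of the 2 in complex V, only mt:ATPase6 had counts. A ratio below 1 thus does not mean a lower level per gene. In complex I the median was 683 TPM over the mitochondrial members and 274 TPM over the standard nuclear subunits. In complex V mt:ATPase6 was at 3770 TPM, against a nuclear median of 610 TPM. In complex IV the mitochondrial mRNAs outnumbered the nuclear ones in counts by 10.5 ± 2.65 times in pum kd heads and 9.62 ± 3.54 times in control heads. In complex III the ratio was 1.68 ± 0.426 in pum kd heads and 1.45 ± 0.523 in control heads. In complex I it was 0.498 ± 0.110 in pum kd heads and 0.400 ± 0.155 in control heads, and in complex V 0.285 ± 0.0260 in pum kd heads and 0.237 ± 0.0389 in control heads (SD, n = 3 each). The groups overlapped in all 4. In TPM the ratio was 7.16 in pum kd heads and 6.49 in control heads for complex IV, 1.80 in pum kd heads and 1.58 in control heads for complex III, 0.548 in pum kd heads and 0.424 in control heads for complex I, and 0.506 in pum kd heads and 0.430 in control heads for complex V. These sums hold the genes of the symbol rule and leave out RFeSP, Cyt-c1 and ox of complex III, levy and cype of complex IV, and blw and sun of complex V. With those added, the ratio in counts was 8.08 in pum kd heads and 7.41 in control heads for complex IV, 1.13 in pum kd heads and 0.975 in control heads for complex III, and 0.225 in pum kd heads and 0.186 in control heads for complex V. Set against the large mitochondrial rRNA, mt:lrRNA, the mitochondrion-encoded members had ratios of 1.64, 1.28 and 1.47 in pum kd replicates 1, 2 and 3, against 1.09, 1.30 and 1.25 in control replicates 1, 2 and 3. These also overlapped.

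The copies contributed almost nothing to the head. Of the 21, 6 had 0 counts in every library, 19 averaged under 1 CPM and 9 passed the filter. Many such copies are testis-biased in Drosophila. COX7AL2, a copy of a complex IV subunit, was the most abundant, with 30.6, 15.1 and 15.6 CPM in pum kd replicates 1, 2 and 3, against 15.6, 33.2 and 19.0 CPM in control replicates 1, 2 and 3. COX7AL had 3.69, 1.84 and 1.28 CPM in pum kd heads and 0.695, 3.62 and 0.971 CPM in control heads. Both were thus highest in the same pair of libraries as the standard subunits. ATPsynepsilonL was at 1.35, 1.12 and 0.695 CPM in pum kd heads and 0, 0.770 and 0.265 CPM in control heads, with a log2 fold change of 1.60 (standard error 1.46) that depends on few reads. COX5BL was at 0.810, 0.507 and 0 CPM in pum kd heads and 1.42, 1.63 and 0 CPM in control heads, and its exons lie within Trmt6 on the opposite strand. How reads shared by a copy and its parent gene were assigned is not given in the sources used here. The testis markers, 4 of 18 at 0 throughout, summed to 133, 190 and 199.8 CPM in pum kd replicates 1, 2 and 3, against 293, 121 and 239.5 CPM in control replicates 1, 2 and 3. Nearly all of this was 1 gene, bol, and without it the sums were 4.08, 29.1 and 7.31 CPM in pum kd heads and 7.61, 5.08 and 5.09 CPM in control heads.

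Among the 59 standard nuclear subunits, 2 of complex I were not tested. ND-MNLL had 0 counts in all libraries. All of its exon length is shared on the same strand with CG45089, which also had 0 counts, so a read of this stretch cannot be given to 1 gene only. ND-B8 had at most 0.428 CPM in any library. The others ran from 97.0 TPM for ATPsyndelta to 1348 TPM for ATPsynC, with a median over all 59 of 400 TPM.

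Chain subunits with other names were read from the same fit. Of the 4 subunits of complex II, succinate dehydrogenase, which has no mitochondrial gene, 1 had a positive log2 fold change and the median was -0.07. Of 8 further subunits of the chain and cytochrome c, 4 were above 0, with a median of -0.01. They included blw, the alpha subunit of the ATP synthase, at 1177 CPM in pum kd heads and 1257 CPM in control heads. Of 19 genes for copying, transcribing and handling mitochondrial DNA and RNA, 16 were found and 13 tested, 8 of them above 0, with a median of 0.06. Only mTTF, a mitochondrial transcription termination factor, had an unadjusted p under 0.05 (log2 fold change -0.54, adjusted p = 0.846 by edgeR). Of 4 regulators of nuclear genes for mitochondria, including srl and ewg, 1 was above 0. mt:lrRNA averaged 21240 CPM in pum kd heads and 21600 CPM in control heads, and mt:srRNA averaged 212 CPM in pum kd heads and 208 CPM in control heads. None of these genes had an adjusted p under 0.05 by edgeR.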

How the data were processed

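Reads were checked with FastQC 0.12.1, trimmed with Trimmomatic 0.39 and aligned to dm6 and counted with STAR 2.7.11b (submitters' processing notes). The strand setting and annotation of the counting are not given in the sources used here. The authors deposited raw counts per gene, and a second table with a normalized signal (ComBat-seq counts over DESeq2 size factors) and their own fold changes and p-values, which were not used. Rows naming no gene, 11.5% to 14.2% of a library, were left out. Gene symbols, positions and exon lengths came from the Ensembl annotation of dm6, matched for 17710 of 17807 genes. The authors' names drop the mt: prefix, and 7 members were found only through the annotation.

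The counts were fitted with edgeR 4.0.16 in R 4.3.3 (filterByExpr, TMM, quasi-likelihood test), tested on simulated data first. CPM uses TMM-scaled library sizes, TPM the summed exon length, and deviations log2(CPM + 0.5). DESeq2 1.42.0, limma 3.58.1 and sva 3.50.0 (ComBat-seq) served alternatives. ComBat-seq with pum kd replicate 1 and control replicates 1 and 2 in one batch gave back 100% of the authors' values over 10380 genes. The counts carry no molecular identifiers. The genes named are all mitochondrial members, the 2 most abundant nuclear members per complex, the 3 with the lowest p in each direction and the 3 most abundant copies; any others are mentioned for a stated property of their annotation, level or p after values were seen. Members and lists were chosen with earlier results of these data known. No reference sequences were used here.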

Additional observations from a re-analysis of the deposited data

How the results depend on the processing

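No member was called under any of the 19 alternatives. Under only 1 of them, DESeq2 after ComBat-seq, did a member, mt:ND3, have an adjusted p under 0.05. The authors describe this sequence of steps, and it was chosen here after the data were seen. In that fit mt:ND3 was 1 member of 78, against 3.37% of all 11324 genes. The replicate numbers did not pair the libraries, with correlations of deviations of -0.09, -0.02 and 0.01 for numbers 1, 2 and 3. With a replicate block 0 members were called, the medians were 0.01 (nuclear) and 0.26 (mitochondrial), and the log2 ratio difference was 0.23. Genes called numbered 11 in all, 73 with no filter, 55 with DESeq2, 22 with the length correction, 25 with the replicate block and length correction together, 40 with limma on the authors' normalized values, 29 and 241 with edgeR and DESeq2 after ComBat-seq, 30 without control replicate 2, 7 without pum kd replicate 2 and 1 without control replicate 3. Under these alternatives the medians and the ratio moved by less than 1 SD between libraries, a measure that also lets a change of sign pass. The nuclear median kept its sign in 13 of 19 alternatives, the mitochondrial median in 18 of 18 and the log2 ratio difference in 12 of 13. With the length correction and pum kd replicate 2 left out together, the mitochondrial median was -0.14, against 0.29.

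Single members, none called, changed sign as follows. With the length correction mt:ND4 was -0.058, ND-MLRQ -0.13, COX7B -0.13, COX5A -0.11 and ATPsynF -0.033, and with the replicate block added -0.025, -0.14, -0.14, -0.12 and -0.030. With a batch term UQCR-C1 was 0.0066, ATPsynC 0.034, COX5BL 1.30 and COX7AL2 0.0078. ATPsynC was also 0.0046 with DESeq2 and with RLE factors, 0.026 on the authors' values, 0.038 with no filter, and 0.064 and 0.041 after ComBat-seq with edgeR and DESeq2. After ComBat-seq UQCR-C1 was 0.017 with edgeR and COX5BL 0.84 with DESeq2, and UQCR-C1 was 0.015 with no filter. Over the fits that leave out 1 library, the range was -0.083 to 0.12 for ATPsynC, -0.065 to 0.42 for ATPsynF, -0.12 to 0.23 for COX5A, -0.13 to 1.47 for COX7AL, -0.52 to 0.26 for COX7AL2, -0.094 to 0.36 for COX7B, -0.14 to 0.0081 for ND-51, -0.16 to 0.33 for ND-MLRQ, -0.11 to 0.10 for UQCR-C1, -0.20 to 0.075 for UQCR-C2, -0.052 to 0.30 for mt:CoI, -0.29 to 0.85 for mt:ND2, -0.14 to 0.27 for mt:ND4 and -2.20 to 0.0093 for mt:ND4L. The cause was not tested. Limits are the 3 libraries per genotype, the length pattern between libraries, and few reads for most copies, mt:ND4L and mt:ND6. mt:ND2 had 298 to 1282 counts per library, the most in pum kd replicate 2, without which its value was -0.29.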

Other observations

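Chromosome 4, which holds ND-49 and ATPsynbeta, stood apart in its median fold change. Of its 99 genes tested, 79 had a log2 fold change below 0 in pum kd heads over control heads, with a median of -0.21, whereas the medians of the other arms lay between -0.03 and -0.02. On chromosome 4, 10 genes (10.1%) were lower without overlap between the groups and 3 were higher, against 4.95% lower and 5.36% higher over all genes tested and 4.12% to 5.72% lower on the other arms. None of the 99 had an adjusted p under 0.05 by edgeR. An unadjusted p under 0.05 was found for 4 of the 99, no more than the 4.95% of all genes tested by edgeR. The genes of chromosome 4 were long, with a median summed exon length of 3639 bases. With the length correction the median log2 fold change of chromosome 4 was -0.11, against -0.04 to -0.01 on the other arms. With 1 library left out at a time it ranged from -0.32 to -0.06. These are values over genes of the same libraries, noticed after the members were examined, and were not tested further.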
